A study of Mus musculus with 15 samples.

Results

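The genes described here are the potassium channel genes of the mouse heart outside the transient outward current. They were taken as the protein coding genes whose symbol starts with Kcn, without Kcnip2, Kcnd2, Kcnd3 and Kcna4, which left 90 of 94 such genes in a table of 54532 genes. Of the 90, 34 reached 0.5 FPKM (fragments per kilobase of gene, scaled to library size) in 3 or more of the 15 libraries, and these 34 were tested among 15321 tested genes. The other 56 stayed below that filter.

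The study asked what 2 activities of NAT10, RNA binding and acetyltransferase activity, do in the developing mouse heart, by its title. NAT10 is an enzyme that acetylates cytidine in RNA. Hearts of 5 groups of 3 mice were profiled by RNA-seq of poly-A RNA, with biological replicates that the labels describe as independent. Which of the mutants below affects which activity is not given in the labels.

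The control hearts (ff_GFP) came from Nat10flox/flox mice injected with AAV9-cTnT-GFP, an adeno-associated virus that carries green fluorescent protein under the cardiac troponin T promoter, which is active in heart muscle cells. The knockout hearts (CKO_GFP) came from Nat10-CKO mice with the same GFP virus. The other 3 groups were Nat10-CKO mice given a virus for NAT10 (CKO_NAT10), for NAT10G641E (CKO_G641E) or for NAT10K209A (CKO_K209A), behind the same promoter. All mice were injected subcutaneously at day 1 after birth with an equal amount of virus and killed 12 to 14 days later, so the floxed controls carried AAV9 as well. The Cre driver behind Nat10-CKO is not given in the labels. The cTnT promoter directs each transgene to muscle cells, while RNA was taken from heart tissue with all its cell types.

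Potassium channels let potassium leave the cell and so end the cardiac action potential and hold the resting potential. Inward rectifiers (Kcnj genes) set the resting potential or couple it to acetylcholine receptors and to ATP. Voltage-gated channels repolarize the cell, and their auxiliary subunits tune how fast they open and close. Two-pore channels carry leak currents, and small-conductance channels open with calcium.

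Between 13218352 and 15912700 reads fell in genes per library. Nat10 itself was at 4.09 ± 0.207 FPKM in ff_GFP and 3.48 ± 0.0498 in CKO_GFP (SD, n = 3). With virus it was at 2.62 ± 0.497 for NAT10, 2.36 ± 0.199 for G641E and 3.54 ± 0.291 for K209A. The 3 CKO_GFP libraries lay below the 3 ff_GFP libraries, by a small margin. The labels state neither the deleted part of Nat10 nor the species of the transgene, so this level is a weak check of the genotype. All 6 ventricular muscle markers were measured, led by Myh6 at 5208 to 6569 FPKM in ff_GFP. Of the atrial markers, Myl7 was at 0 to 0.253 FPKM and Sln at 0 in ff_GFP, while the CKO_G641E library of replicate 3 held Myl7 at 49.3 and Sln at 3.56 FPKM. CKO_K209A replicates 1 and 2 held Myl7 at 7.47 and 7.23 FPKM and Myl4 at 2.61 and 2.81, where ff_GFP held Myl4 at 0.594 to 0.874. A pair of T cell markers did not pass the filter, and the 6 skeletal muscle markers, with Acta1 of stressed heart muscle among them, summed to 29.8 to 83.7 FPKM in ff_GFP.

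The markers of cell types moved with the groups, and this stands beside every result below. The 6 ventricular markers were all lower in CKO_GFP than in ff_GFP, with a median log2 change of -0.92, and their summed level was 10072 to 11759.6 FPKM in ff_GFP and 5093 to 5826 in CKO_GFP. All 5 fibroblast markers were higher, with a median of 1.01, and their summed level went from 297 to 343 FPKM in ff_GFP to 597 to 772 in CKO_GFP. In CKO_K209A the ventricular sum was 3995 to 4695 FPKM and the fibroblast sum 704 to 745, while CKO_NAT10 had 8083 to 9049 and 407 to 412, and CKO_G641E 8459 to 9721 and 367 to 389. Of 5 endothelial markers 3 were lower in CKO_GFP than in ff_GFP. Smooth muscle and pericyte markers gave 2 higher and 2 lower of 7, nerve and Schwann markers 2 higher and 1 lower of 4 tested, macrophage markers 1 higher of 5 and skeletal muscle markers 1 higher of 3 tested. The summed atrial list was 18.4 to 26.6 FPKM in ff_GFP and 1898 to 4167 in CKO_GFP, nearly all of it Nppa, which stressed ventricular muscle also makes. In tissue RNA, fewer cells of a type and less RNA per cell cannot be told apart, and the part of these shifts in the channel values was not tested.

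The largest share of channel reads in all libraries came from Kcnk3, which encodes a two-pore leak channel of the TASK type. It held 23.8% of the reads of the 90 genes, and with Kcng2, Kcnj11, Kcnh2 and Kcnj5 it held 62.6%. By mean FPKM in ff_GFP the order was Kcnk3 at 97.0, Kcng2 at 73.7, Kcnj11 at 49.6, Kcnh2 at 43.6, Kcne1 at 31.9, Kcnj8 at 29.6 and Kcnj5 at 29.0. Kcnj11 and Kcnh2 overlapped between libraries, as did the last 3, so their order is not resolved. In CKO_GFP the first 3 kept their places, while the mean of Kcnh2, the fourth in ff_GFP, came after those of Kcnj8, Kcnj5, Kcna5, Kcne1 and Kcnq1. Libraries of Kcnh2 overlapped those of Kcna5, Kcne1 and Kcnq1 there, so that part of the order is not resolved. The 90 genes together took 0.151 to 0.171% of gene reads in ff_GFP and 0.0941 to 0.12% in CKO_GFP. That share was 0.138 to 0.152% in CKO_NAT10, 0.126 to 0.137% in CKO_G641E and 0.0822 to 0.103% in CKO_K209A. The ff_GFP and CKO_GFP ranges did not overlap, and K209A hearts overlapped CKO_GFP hearts.

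Comparing CKO_GFP with ff_GFP asks what loss of Nat10 did under the same virus. The largest falls on the log2(FPKM + 0.5) scale were those of Kcnj3, Kcnj2, Kcnh2 and Kcnn2, and the largest rises those of Kcnj15, Kcnj4, Kcne4 and Kcnq5, which were low genes in ff_GFP. Of 34 tested genes, 16 were lower and 6 higher at an adjusted p under 0.05 in limma, and 12 were not called. Among all tested genes 20.8% were called lower and 19.8% higher. In 25 of the 34, no library of 1 group overlapped the other group, beside 46.5% of all tested genes. The median log2 change was -0.36 over the 34 and 0.00 over all tested genes. On GRCm38 the 4 leading falls lie at chr2:55435970-55598145 (Kcnj3, plus strand), chr11:111066164-111076821 (Kcnj2, plus), chr5:24319589-24351604 (Kcnh2, minus) and chr18:45268860-45686024 (Kcnn2, plus). Low genes that passed the filter only through their high group had to differ, so these counts describe the genes that passed and not all 90. Of the 29 with a mean of at least 0.5 FPKM over all libraries, 15 were lower and 5 higher. Scaling libraries to the reads recovered from FPKM and gene length moved the median of all genes by 0.12. It gave 7 higher and 11 lower of the 34, with 42.1% of all tested genes called. Among others, Kcnj8, Kcnq1, Kcng2 and Kcnab3 were no longer called, and Kcnt1 was.

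**Figure D1:**
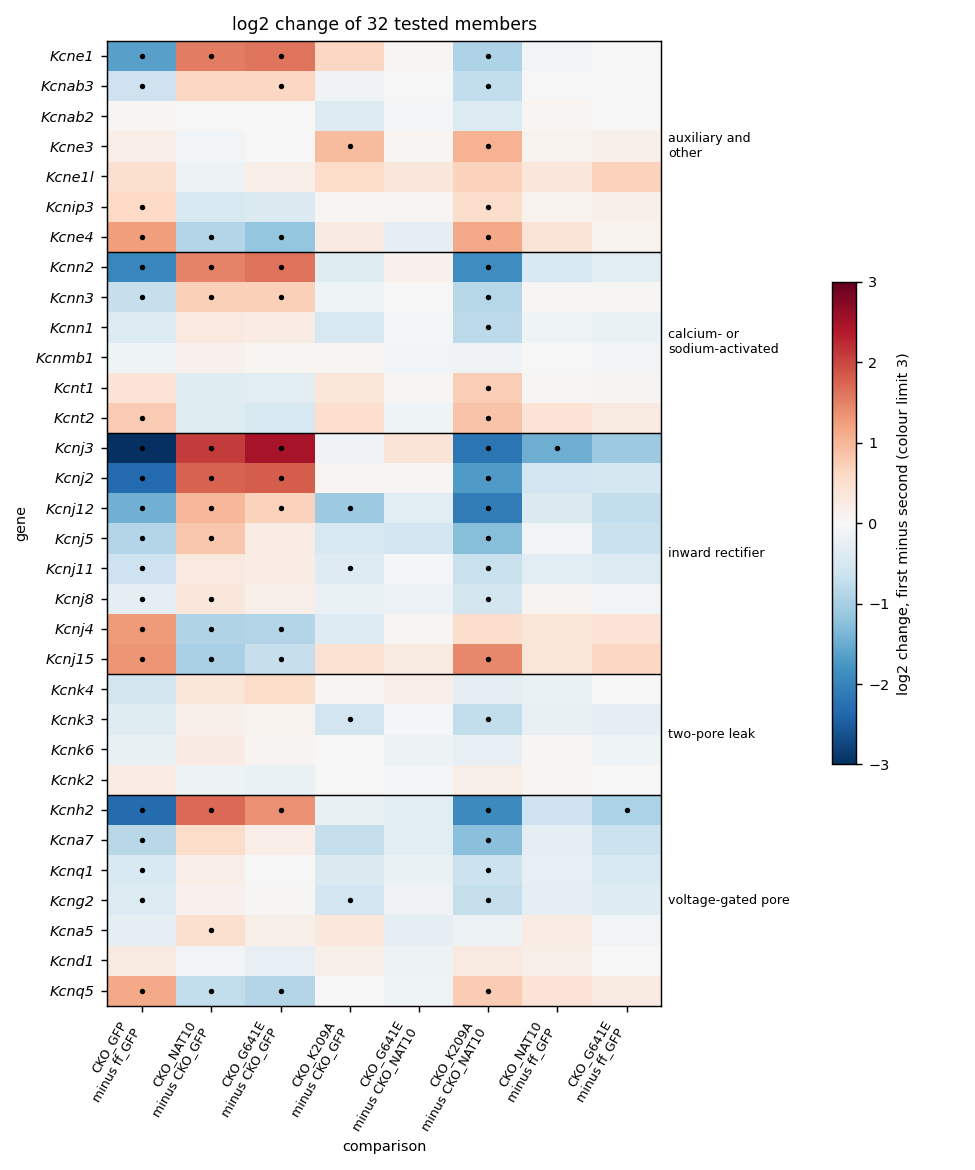
log2 changes of 32 tested genes (rows, by class and by change in CKO_GFP) in 8 comparisons (columns). Red is higher and blue lower in the group named first, colours end at 3, and a dot marks an adjusted p under 0.05. The first column has 14 lower and 6 higher calls among these genes, the fifth has none.

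Comparing each NAT10 virus with GFP within the knockout asks how hearts given each transgene differed from knockout hearts given GFP. With wild-type NAT10, 11 of the 34 were higher and 4 lower than in CKO_GFP, beside 15.1% and 16.1% of all tested genes. With G641E, 9 were higher and 4 lower, beside 15.4% and 15.9%. Without the replicate 3 library that held atrial markers the 13 calls became 11, and likewise without CKO_G641E replicate 1 or replicate 2. The share of all tested genes called was 31.3% in the full fit. It was 23.8% without replicate 1 and 24.8% without replicate 2 or replicate 3. With K209A, 1 was higher and 5 were lower, beside 2.17% and 5.76%. These comparisons share the CKO_GFP libraries with each other and with the knockout comparison, so their values are set side by side and not counted as separate evidence. Fits of only the 2 groups lost further calls against CKO_GFP, at unchanged log2 changes. These were Kcnj12, Kcna5 and Kcnn3 for NAT10, and for G641E they included Kcnj12, Kcnj15, Kcnab3 and Kcnn3. The share of all tested genes called fell too, from 31.2% to 15.4% for NAT10 and from 31.3% to 17.6% for G641E.

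The K209A count changed when single libraries were left out, and the share of all tested genes called changed too. In the full fit the count was 6, beside 7.93% of all tested genes. Without CKO_GFP replicate 1 it was 10 (10.8%), and without CKO_GFP replicate 3 it was 3 (6.07%). Without CKO_K209A replicate 1 or replicate 2 it was 2 (2.79% and 3.47%), and without CKO_K209A replicate 3 it was 9 (8.54%). It came to 3 under quantile normalization (7.22%) and to 0 when only the 2 groups were fitted (0.0587%). With quantile normalization 1 gene was higher and 2 were lower, and with scaling to recovered reads (9.51%) 2 were higher and 2 lower.

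Set directly against wild-type NAT10, the mutants differed in count. Between CKO_G641E and CKO_NAT10 limma called 0 of the 34, where 0.0326% of all tested genes were called higher and 0.0196% lower. At an unadjusted p under 0.05 there were 3, Kcnj5 and Kcnj8 among them, a count with no share of all tested genes beside it. Limma voom on recovered reads also called 0. Between CKO_K209A and CKO_NAT10, 7 were higher and 18 lower, beside 20.3% and 21.2% of all tested genes. The 5 largest falls were those of Kcnj3 at -2.20 (SE 0.26), Kcnj12 at -2.09 (SE 0.24), Kcnh2 at -1.92 (SE 0.16), Kcnn2 at -1.86 (SE 0.14) and Kcnj2 at -1.71 (SE 0.25).

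Against the floxed controls, the hearts given NAT10 or G641E showed few calls. CKO_NAT10 had 0 higher and 2 lower than ff_GFP, Kcnj3 among them, beside 0.79% and 1.68% of all tested genes, and 7 of the 34 had an unadjusted p under 0.05. CKO_G641E had 0 higher and 2 lower, Kcnh2 among them, beside 0.627% and 1.16%, and 12 had an unadjusted p under 0.05. The share of all tested genes with an unadjusted p under 0.05 was not taken. The 7 and the 12 are thus not set apart from genes outside the 34. Both counts of 2 fell when some single libraries were left out, and so did the share of all tested genes called. In the full fits that share was 2.47% for NAT10 and 1.79% for G641E. The NAT10 count came to 0 without ff_GFP replicate 1 (0.6%) or replicate 2 (0.973%). It came to 1 without ff_GFP replicate 3 or any CKO_NAT10 library (0.711% to 1.87%). The G641E count came to 0 without ff_GFP replicate 1 (0.457%), ff_GFP replicate 3 (0.757%) or CKO_G641E replicate 2 (0.627%). Without CKO_G641E replicate 3 it came to 1 (0.62%).

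Inward rectifier genes showed the widest changes: all 8 tested members were called in the knockout comparison, 6 lower and 2 higher. Among all tested genes 20.8% were called lower and 19.8% higher. The calls of Kcnj4 and Kcnj3 follow in part from the filter, and Kcnj15 passed it through groups other than ff_GFP, as given below. Kcnj3 and Kcnj5 encode the subunits of the channel that opens when acetylcholine acts on the heart, best known from atrial muscle and pacemaker tissue. Kcnj3 was at 5.78, 7.32 and 5.58 FPKM in the ff_GFP libraries and at 0.0604, 0.0858 and 0.0513 in CKO_GFP. The groups lay far apart, with 416, 511 and 409 reads against 5, 6 and 4. On the log2(FPKM + 0.5) scale, which pulls low genes towards 0, the change was -3.56 (SE 0.26, adjusted p = 4.65e-07). In CKO_NAT10 Kcnj3 stood at 0.933, 3.39 and 2.03 FPKM, and in CKO_G641E at 2.94, 2.83 and 2.25, all above CKO_GFP and below ff_GFP. The K209A libraries held 0.0128, 0 and 0.0675 FPKM, which is 1, 0 and 6 reads. Kcnj3 passed the filter through ff_GFP, CKO_NAT10 and CKO_G641E libraries alone, so its gap to CKO_GFP and CKO_K209A follows in part from the filter.

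Kcnj3 was higher than in CKO_GFP by 2.09 with NAT10 (SE 0.26, adjusted p = 8.35e-05) and by 2.48 with G641E (SE 0.26, adjusted p = 2.15e-05). CKO_K209A and CKO_GFP overlapped, with a change of -0.10 (SE 0.26, adjusted p = 0.848). Compared with ff_GFP, CKO_NAT10 remained lower by a log2 change of -1.47 (SE 0.26, adjusted p = 0.0131), a call that was lost without ff_GFP replicate 1, at -1.51, and without ff_GFP replicate 2, at -1.35. For CKO_G641E that change was -1.08 and missed the threshold (adjusted p = 0.0598). Kcnj3 overlaps an antisense gene, Gm26794, in 31.1% of its exon bases, and whether reads were counted by strand is not stated. Gm26794 itself was at no more than 0.0538 FPKM in any library. The part of atrial tissue in the Kcnj3 values was not tested.

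Kcnj5, the partner subunit, is a more abundant gene and changed less. It was at 31.3, 25.7 and 30.0 FPKM in ff_GFP and at 16.5, 11.3 and 19.3 in CKO_GFP, a log2 change of -0.89 (SE 0.19, adjusted p = 0.00201). The groups did not overlap. CKO_NAT10 libraries held 25.7, 25.4 and 30.5 FPKM, higher than CKO_GFP by 0.80 (adjusted p = 0.00596). CKO_G641E libraries held 17.8, 16.7 and 19.8 FPKM, which overlapped CKO_GFP, with a change of 0.23 (adjusted p = 0.384). The direct difference of G641E from NAT10 was -0.57 (95% interval -0.98 to -0.17, adjusted p = 0.502), with no overlap between libraries. In CKO_K209A Kcnj5 was at 9.20, 9.70 and 14.5 FPKM. As a share of the summed Kcnj3 and Kcnj5 level, Kcnj3 was 15.6 to 22.1% in ff_GFP, 0.265 to 0.756% in CKO_GFP, 3.51 to 11.8% in CKO_NAT10, 10.2 to 14.5% in CKO_G641E and 0 to 0.465% in CKO_K209A.

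The classical inward rectifier, which holds the resting potential of ventricular muscle, is built from Kcnj2, Kcnj12 and Kcnj4. Kcnj2 was at 11.2, 9.33 and 8.52 FPKM in ff_GFP and at 1.63, 0.795 and 2.38 in CKO_GFP, a log2 change of -2.34 (SE 0.25, adjusted p = 9.63e-06). It was at 5.96, 8.39 and 5.05 FPKM in CKO_NAT10, at 5.68, 8.18 and 5.98 in CKO_G641E, and at 1.72, 1.69 and 1.39 in CKO_K209A. Both NAT10 and G641E hearts lay wholly above CKO_GFP, by 1.77 (adjusted p = 0.0002) and 1.82 (adjusted p = 0.000158), while K209A hearts overlapped it at 0.07 (adjusted p = 0.898). G641E and NAT10 differed by 0.04 (95% interval -0.50 to 0.59).

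Kcnj12 showed a like fall in the knockout, from 16.5, 11.6 and 12.6 FPKM in ff_GFP to 3.11, 3.99 and 7.93 in CKO_GFP, a change of -1.43 (SE 0.24, adjusted p = 0.000317). Its CKO_NAT10 libraries held 9.77, 9.21 and 10.4 FPKM, a rise of 1.00 over CKO_GFP (adjusted p = 0.00641). Here K209A went further down: its libraries held 1.65, 2.29 and 1.84 FPKM, all below CKO_GFP, with a change of -1.09 (SE 0.24, adjusted p = 0.0152). That call was lost without CKO_K209A replicate 1, at -1.01, and when only the 2 groups were fitted. The G641E libraries held 8.17, 7.47 and 7.79 FPKM and overlapped CKO_GFP. Their call at 0.69 (adjusted p = 0.0415) was lost without CKO_GFP replicate 1 at 0.43, without CKO_GFP replicate 2 at 0.59, and without any 1 of the CKO_G641E libraries at 0.66 to 0.72.

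Kcnj4, the third gene of this family, went the other way at a low level. It was at 0.202, 0 and 0.033 FPKM in ff_GFP, which is 6, 0 and 1 reads, and at 1.20, 0.728 and 0.777 in CKO_GFP, which is 41, 21 and 25 reads. The change was 1.28 (SE 0.20, adjusted p = 0.000253). Kcnj4 passed the filter through the CKO_GFP and CKO_K209A libraries alone, so a gap to the other groups follows in part from the filter. NAT10 and G641E hearts were lower than CKO_GFP by log2 changes of -0.90 (adjusted p = 0.00484) and -0.88 (adjusted p = 0.00568). K209A hearts held 0.590, 0.517 and 0.573 FPKM, between those groups. Kcnj4 made up 0 to 0.725% of the summed level of the 3 genes in ff_GFP, 7.01 to 20.2% in CKO_GFP and 11.5 to 15.1% in CKO_K209A. In CKO_NAT10 it was 1.10 to 1.99% and in CKO_G641E 1.04 to 3.31%. These shares are descriptions and carry no test.

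**Figure D2:**
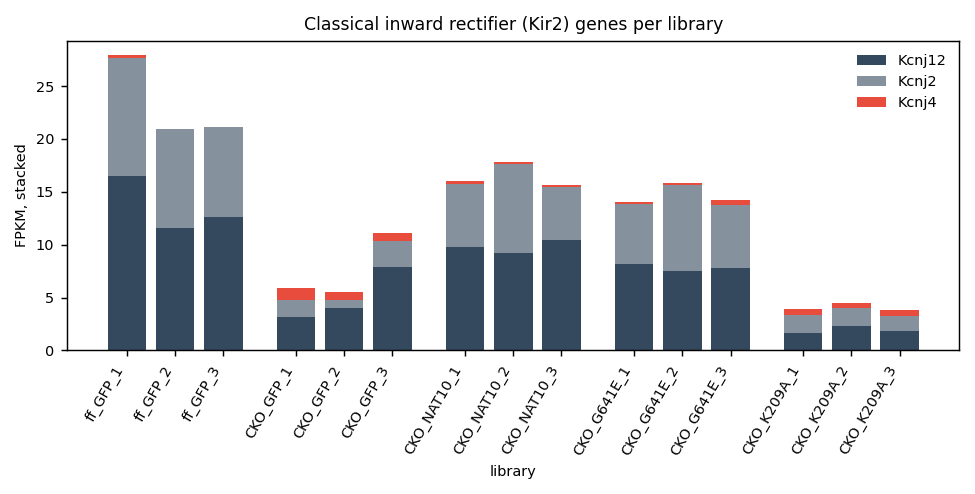
FPKM of Kcnj12, Kcnj2 and Kcnj4 stacked for each of the 15 libraries. The summed level was 21 to 27.9 in ff_GFP, 5.51 to 11.1 in CKO_GFP, 15.7 to 17.8 in CKO_NAT10, 14.0 to 15.8 in CKO_G641E and 3.8 to 4.5 in CKO_K209A.

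The upstream sequences of 4 inward rectifier genes are shown. Of this class Kcnj3 and Kcnj2 had the largest falls in the knockout, and Kcnj4 and Kcnj15 were the genes called higher. Each is the 250 bases before the gene start, from RefSeq on GRCm38.p6, 5′ to 3′ on the gene's strand. Capitals mark a GC box (GGGCGG, the site of SP1-type factors) or an E-box (CACGTG) on either strand. Kcnj3 lies at chr2:55435720-55435969 on the plus strand, Kcnj2 at chr11:111065914-111066163 on the plus strand, Kcnj4 at chr15:79505242-79505491 on the minus strand and Kcnj15 at chr16:95257308-95257557 on the plus strand.
Kcnj3: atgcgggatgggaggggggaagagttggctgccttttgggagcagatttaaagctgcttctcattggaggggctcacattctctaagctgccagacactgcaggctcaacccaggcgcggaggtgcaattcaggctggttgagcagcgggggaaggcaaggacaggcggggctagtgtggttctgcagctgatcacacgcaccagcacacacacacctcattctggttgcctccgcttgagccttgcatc
Kcnj2: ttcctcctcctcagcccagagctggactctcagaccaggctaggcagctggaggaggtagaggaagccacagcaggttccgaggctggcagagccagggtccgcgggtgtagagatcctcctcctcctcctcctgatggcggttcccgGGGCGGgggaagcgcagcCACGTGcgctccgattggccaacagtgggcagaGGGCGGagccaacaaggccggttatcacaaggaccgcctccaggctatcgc
Kcnj4: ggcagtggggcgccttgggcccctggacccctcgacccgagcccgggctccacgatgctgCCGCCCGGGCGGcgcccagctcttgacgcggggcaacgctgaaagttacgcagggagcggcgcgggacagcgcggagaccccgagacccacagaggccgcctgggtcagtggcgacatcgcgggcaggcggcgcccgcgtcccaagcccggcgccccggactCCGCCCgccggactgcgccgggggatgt
Kcnj15: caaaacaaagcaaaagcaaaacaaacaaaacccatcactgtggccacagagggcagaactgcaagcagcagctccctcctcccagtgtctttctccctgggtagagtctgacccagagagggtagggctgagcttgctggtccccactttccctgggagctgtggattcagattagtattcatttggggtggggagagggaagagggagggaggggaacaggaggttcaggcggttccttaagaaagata

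Kcnj2 held a pair of GC boxes, 102 and 51 bases before the start, and an E-box at 84. Kcnj4 held 3 GC boxes, at 190, 184 and 28 bases, the first and the last of them on the opposite strand. Neither the Kcnj3 nor the Kcnj15 window held either motif. Bases G and C made up 58.4% of the Kcnj3 window, 65.6% of Kcnj2, 77.2% of Kcnj4 and 53.2% of Kcnj15. Among 32851 promoters of the same length, 32.7% held a GC box and 6.02% an E-box. Of the 34 tested genes, 22 had a promoter entry. Tested genes on chr18 (Kcnn2 and Kcng2) were left aside, and 12 of the rest started where the deposited table has the gene start. Of these 12, 3 held a GC box (Kcnj2, Kcnj4 and Kcnk4). A match is a description of letters and not a binding site.

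Kcnj11 and Kcnj8 encode the pores of the ATP-sensitive channels, in muscle cells and mainly in vascular cells. Kcnj11 was at 51.4, 44.9 and 52.4 FPKM in ff_GFP and at 28.4, 31.3 and 36.9 in CKO_GFP, a log2 change of -0.62 (SE 0.11, adjusted p = 0.000463). It was at 38.7, 36.5 and 42.4 FPKM in CKO_NAT10 and at 39.9, 35.0 and 37.7 in CKO_G641E. Neither was called against CKO_GFP, at 0.29 (adjusted p = 0.0587) and 0.22 (adjusted p = 0.131). K209A hearts held 22.5, 23.7 and 27.3 FPKM, all below CKO_GFP, with a change of -0.38 (SE 0.11, adjusted p = 0.0456). That call was lost without CKO_GFP replicate 2 at -0.40, without CKO_GFP replicate 3 at -0.28, without CKO_K209A replicate 1 at -0.33 and without CKO_K209A replicate 2 at -0.36, and also under quantile normalization and scaling to recovered reads.

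Kcnj8 moved in a narrow range, from 30.4, 27.5 and 30.8 FPKM in ff_GFP to 25.8, 24.5 and 23.8 in CKO_GFP. Its spread between replicates was small, so that a change of -0.26 was called (SE 0.06, adjusted p = 0.0062). Scaled to recovered reads, the change was -0.11 and not called. CKO_NAT10 hearts held 30.4, 31.0 and 33.0 FPKM, higher than CKO_GFP by 0.34 (adjusted p = 0.00131). The 3 K209A libraries were all at 21.2 FPKM. The regulatory subunits of these channels, outside the Kcn symbols, gave lower values too: Abcc9 changed by -1.12 in CKO_GFP against ff_GFP (SE 0.11, adjusted p = 6.42e-06) and Abcc8 by -0.54 (SE 0.15, adjusted p = 0.0131). Abcc9 was higher than in CKO_GFP by 1.13 with NAT10 (adjusted p = 1.91e-05) and by 0.97 with G641E (adjusted p = 4.98e-05). With K209A it differed by 0.24 (adjusted p = 0.23).

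Kcnj15, an inward rectifier gene best known from kidney and secretory epithelia, had the largest rise in the knockout on the log2(FPKM + 0.5) scale, while the ratio of means was 11.5 for Kcnj4, 5.34 for Kcnq5 and 4.55 for Kcnj15. Kcnj15 went from 0.264, 0.438 and 0.450 FPKM in ff_GFP to 1.37, 2.27 and 1.61 in CKO_GFP, a log2 change of 1.33 (SE 0.17, adjusted p = 3.3e-05). Each ff_GFP library lay below 0.5 FPKM, so the gene passed the filter through the other groups. NAT10 hearts held 0.760, 0.600 and 0.551 FPKM and G641E hearts 0.799, 0.715 and 1.10, all below CKO_GFP. The falls against CKO_GFP were -0.97 (adjusted p = 0.000788) and -0.70 (adjusted p = 0.00629). K209A hearts had the highest values, 2.75, 2.62 and 2.28 FPKM. They lay above CKO_GFP without overlap, yet the change of 0.46 was not called (adjusted p = 0.113). It was called when scaled to recovered reads, at 0.56, and without CKO_GFP replicate 2, at 0.62.

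**Figure D3:**
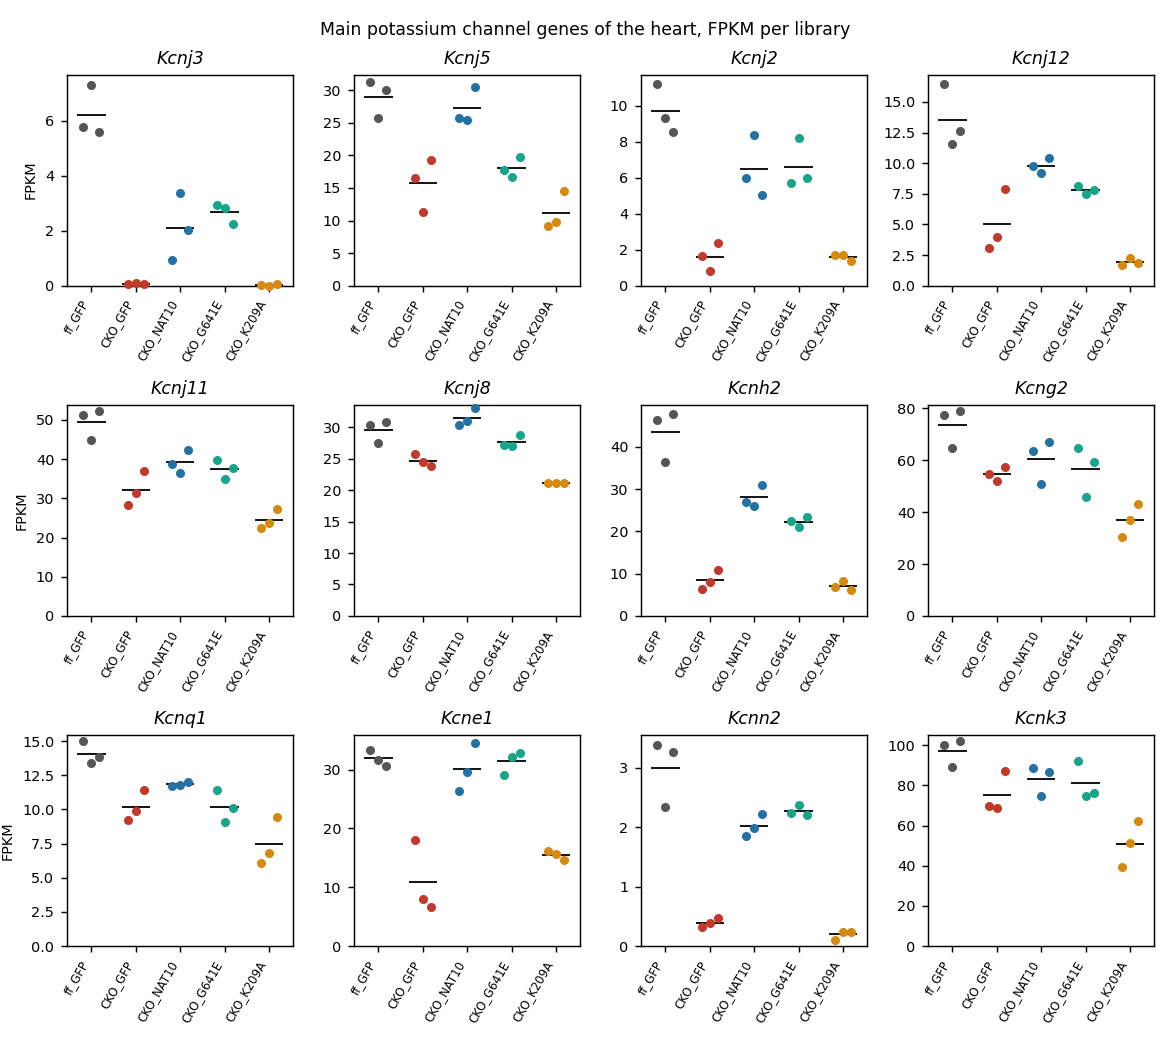
FPKM of 12 genes in each library (points) by group, with the mean of 3 as a line and axes from 0. For Kcnj3, Kcnj2 and Kcnh2 the CKO_GFP and CKO_K209A points lie at the bottom, with CKO_NAT10 and CKO_G641E between them and ff_GFP, while for Kcnn2 the CKO_G641E points reach 2.38 and overlap ff_GFP, which starts at 2.34.

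Voltage-gated pore genes came next in size of change, with 6 of 9 tested members lower and 1 higher in the knockout. The shares of all tested genes were 20.8% and 19.8%. Kcnh2 encodes the pore of the rapid delayed rectifier, whose human counterpart is linked to long QT syndrome. It was at 46.4, 36.5 and 47.9 FPKM in ff_GFP and at 6.45, 8.05 and 10.9 in CKO_GFP, a log2 change of -2.32 (SE 0.16, adjusted p = 3.34e-07). It was at 27.0, 26.0 and 31.1 FPKM in CKO_NAT10, at 22.4, 21.1 and 23.3 in CKO_G641E and at 6.81, 8.23 and 6.16 in CKO_K209A. It was higher than in CKO_GFP by 1.70 in CKO_NAT10 (adjusted p = 1.26e-05) and by 1.37 in CKO_G641E (adjusted p = 5.14e-05), while K209A differed from CKO_GFP by -0.22 (adjusted p = 0.439). The G641E libraries all lay below the NAT10 libraries, by -0.32 (95% interval -0.67 to 0.03, adjusted p = 0.797).

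Neither in CKO_NAT10 nor in CKO_G641E did Kcnh2 reach the range of ff_GFP. The difference from ff_GFP was called for G641E, at -0.94 (SE 0.16, adjusted p = 0.012), and missed the threshold for NAT10, at -0.62 (SE 0.16, adjusted p = 0.0667). The G641E call was lost without ff_GFP replicate 1 at -0.89, without ff_GFP replicate 3 at -0.87 and without CKO_G641E replicate 2 at -0.90. Under voom on recovered reads the NAT10 difference of -0.63 was called.

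Kcnq1 and Kcne1 encode the pore and the auxiliary subunit of the slow delayed rectifier. Kcnq1 was at 15, 13.4 and 13.8 FPKM in ff_GFP and at 9.25, 9.90 and 11.4 in CKO_GFP, a change of -0.45 (SE 0.13, adjusted p = 0.0157). This call was lost without ff_GFP replicate 1, at -0.41, and with scaling to recovered reads, at -0.31. Neither NAT10, at 11.7, 11.8 and 12.0 FPKM, nor G641E, at 11.4, 9.07 and 10.1 FPKM, was called against CKO_GFP. K209A hearts held 6.09, 6.83 and 9.42 FPKM, which overlapped CKO_GFP, and were not called lower in the full fit. They were called lower without CKO_K209A replicate 3, at -0.61, and without CKO_GFP replicate 1, at -0.51.

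Kcne1 changed more than its pore. It was at 33.4, 31.7 and 30.6 FPKM in ff_GFP and at 18.1, 8.06 and 6.68 in CKO_GFP, a change of -1.63 (SE 0.25, adjusted p = 0.000178). CKO_GFP replicate 1 stood apart from the other two libraries of its group. In CKO_NAT10 the values were 26.4, 29.6 and 34.5 FPKM and in CKO_G641E 29.1, 32.2 and 32.9, which overlapped ff_GFP. The differences from ff_GFP were -0.09 (95% interval -0.63 to 0.45) and -0.02 (95% interval -0.56 to 0.52). K209A hearts held 16.2, 15.6 and 14.6 FPKM, against CKO_GFP a change of 0.61 (SE 0.25, adjusted p = 0.154), which became 1.02 and was called without CKO_GFP replicate 1. Kcne1 per Kcnq1 was 2.22 to 2.36 in ff_GFP, 0.588 to 1.96 in CKO_GFP, 2.27 to 2.87 in CKO_NAT10, 2.55 to 3.55 in CKO_G641E and 1.55 to 2.66 in CKO_K209A.

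Kcng2 encodes a silent subunit that modifies other voltage-gated pores. It was at 77.4, 64.8 and 79.0 FPKM in ff_GFP and at 54.9, 51.9 and 57.3 in CKO_GFP. The groups did not overlap, and the change of -0.42 (SE 0.15, adjusted p = 0.0391) was called. In 5 of 6 fits without 1 library this call was lost, at -0.37 to -0.46, and only leaving out ff_GFP replicate 2 kept it. K209A hearts held 30.5, 37.1 and 43.2 FPKM, below all others, and were lower than CKO_GFP by a change of -0.57 (SE 0.15, adjusted p = 0.0366). That call was lost without any 1 CKO_GFP library, at -0.54 to -0.61, without CKO_K209A replicate 1 at -0.44 and without CKO_K209A replicate 2 at -0.58. Kcng2 shares 9.1% of its exon bases with an antisense gene.

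Kcna5 encodes the pore of the ultrarapid delayed rectifier and was not called in the knockout. It was at 12.5, 13.6 and 13.4 FPKM in ff_GFP, at 14.7, 8.71 and 10.1 in CKO_GFP and at 13.3, 15.6 and 12.5 in CKO_K209A, and these groups overlapped. The knockout change was -0.26 (95% interval -0.61 to 0.08, adjusted p = 0.215), and it became -0.47 and was called without CKO_GFP replicate 1. The one call was NAT10 above CKO_GFP, at 0.48 (SE 0.16, adjusted p = 0.0367), with 17.5, 13.1 and 15.9 FPKM. It was lost without CKO_GFP replicate 2 at 0.32, without CKO_GFP replicate 3 at 0.43, without CKO_NAT10 replicate 1 at 0.39 and without CKO_NAT10 replicate 3 at 0.46.

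Kcna7, a pore gene of the Shaker family expressed in heart and skeletal muscle, was at 1.26, 1.54 and 2.61 FPKM in ff_GFP and at 0.519, 0.889 and 0.889 in CKO_GFP. The change was -0.84 (SE 0.26, adjusted p = 0.0211), lost without ff_GFP replicate 3 at -0.60 and without CKO_GFP replicate 1 at -0.69. K209A hearts had the lowest values, 0.0612, 0.340 and 0.457 FPKM from 2, 12 and 17 reads. They were below CKO_NAT10, at 0.942, 1.22 and 1.95 FPKM, by -1.25 (SE 0.26, adjusted p = 0.00185).

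Kcnq5, a relative of Kcnq1 best known from neurons and vascular muscle, was the 1 voltage-gated gene that rose in the knockout. It was at 0.283, 0.146 and 0.139 FPKM in ff_GFP, from 30, 15 and 15 reads, and at 1.12, 0.951 and 0.957 in CKO_GFP, from 137, 98 and 110 reads. In CKO_K209A it stood at 1.10, 1.08 and 0.893 FPKM. It passed the filter through CKO_GFP, CKO_K209A and CKO_G641E replicate 3 (0.552 FPKM), so its rise follows in part from the filter. The change in the knockout was 1.14 (SE 0.18, adjusted p = 0.000267). Against CKO_GFP it differed by -0.74 in CKO_NAT10 (adjusted p = 0.00823), by -0.87 in CKO_G641E (adjusted p = 0.00305) and by 0.01 in CKO_K209A (adjusted p = 0.977). Kcnd1 was not called in any of the 8 comparisons.

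**Figure D4:**
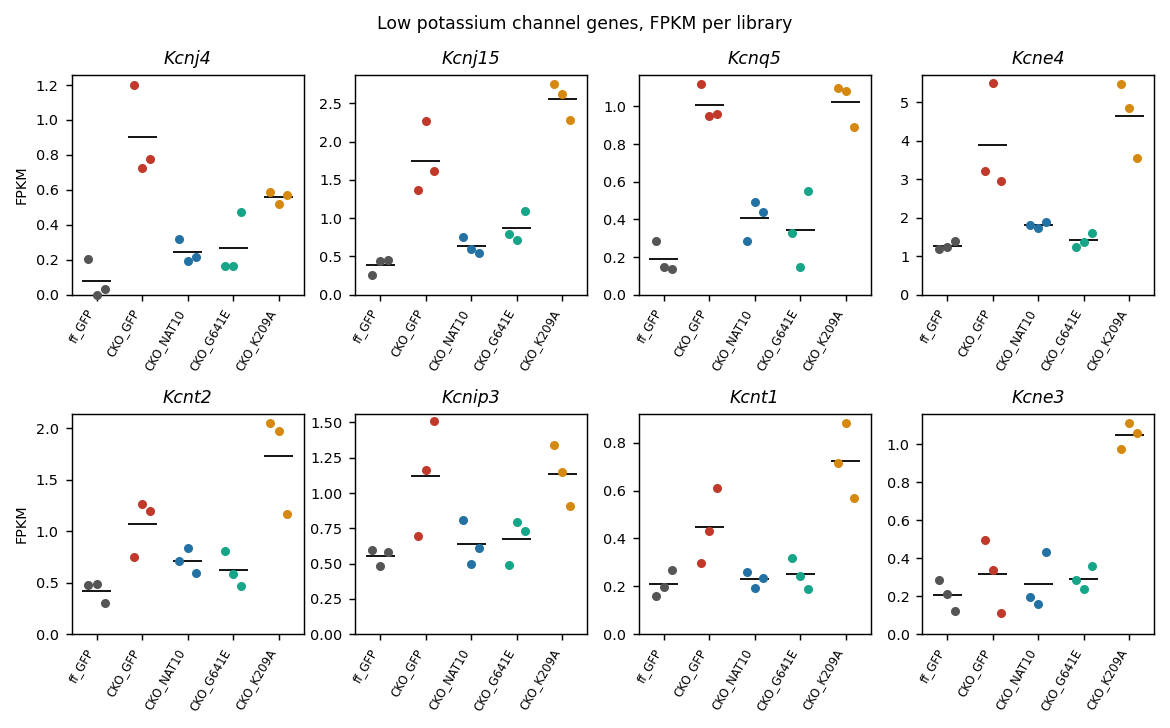
FPKM of 8 low genes in each library (points) by group, with the mean of 3 as a line and axes from 0. For Kcnq5 and Kcne4 the CKO_GFP and CKO_K209A points lie above the other 3 groups, and Kcne3 is high in CKO_K209A, at 0.976 to 1.11, with 0.113 to 0.496 in the other groups.

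Of 7 tested auxiliary genes, Kcne1 and Kcnab3 were lower and Kcne4 and Kcnip3 higher in the knockout, near the shares of all tested genes (20.8% and 19.8%). Kcne4, whose product inhibits several voltage-gated pores when expressed with them, was at 1.20, 1.24 and 1.39 FPKM in ff_GFP and at 3.20, 5.50 and 2.94 in CKO_GFP, a change of 1.26 (SE 0.19, adjusted p = 0.000146). NAT10 hearts held 1.81, 1.74 and 1.89 FPKM, G641E hearts 1.25, 1.38 and 1.60, and K209A hearts 5.48, 4.84 and 3.56. NAT10 and G641E lay below CKO_GFP, by -0.88 (adjusted p = 0.0035) and -1.16 (adjusted p = 0.000493), and K209A overlapped it at 0.25 (adjusted p = 0.449). Kcne4 per Kcnq1 was 0.0800 to 0.101 in ff_GFP, 0.259 to 0.556 in CKO_GFP and 0.377 to 0.900 in CKO_K209A.

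Kcne3, which can hold Kcnq1 channels open and is best known from intestine and other epithelia, was high in K209A hearts. It was at 0.976, 1.11 and 1.06 FPKM there, from 26, 32 and 32 reads. In the other 12 libraries it ran from 0.113 to 0.496 FPKM, from 3 to 14 reads, without overlap. It passed the filter through the 3 K209A libraries alone, so its gap to the other groups follows in part from the filter. The rise over CKO_GFP was 0.95 (SE 0.20, adjusted p = 0.014) and over CKO_NAT10 1.04 (SE 0.20, adjusted p = 0.00111). The first call was lost without CKO_K209A replicate 2, at 0.92, and when only the 2 groups were fitted.

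Kcnip3, a calcium-binding partner of channels that also acts in the nucleus, was higher in the knockout by 0.59 (adjusted p = 0.0272), from 0.484 to 0.593 FPKM in ff_GFP to 0.693 to 1.51 in CKO_GFP. Its call was lost in 5 of 6 fits without 1 library, at 0.42 to 0.62, and was kept without CKO_GFP replicate 1. Kcnab3, a beta subunit of Shaker-type channels, was lower by -0.63 (adjusted p = 0.0383), with 0.447 to 0.547 FPKM in ff_GFP and 0.0440 to 0.234 in CKO_GFP, and it passed the filter through other groups than CKO_GFP and CKO_K209A. This too was lost in 5 of 6 such fits, at -0.51 to -0.66, and was kept without CKO_GFP replicate 2. Kcnab2 was not called in any comparison. Kcne1l was at 3.14 FPKM in CKO_GFP replicate 1 and at 0.774 and 0.693 in the other two libraries of that group, against 0.691 to 0.823 in ff_GFP. It was not called in any of the 8 comparisons. Without that library it was called higher than CKO_GFP in CKO_G641E, by 0.72, and in CKO_K209A, by 1.07.

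Genes of calcium- and sodium-activated channels gave 2 falls and 1 rise among 6 tested in the knockout, a share near that of all tested genes, of which 20.8% fell and 19.8% rose. Kcnn2 encodes a small-conductance calcium-activated channel studied in atrial and ventricular repolarization. It was at 3.39, 2.34 and 3.26 FPKM in ff_GFP, from 342, 229 and 336 reads, and at 0.318, 0.397 and 0.475 in CKO_GFP, from 37, 39 and 52 reads. The change was -1.95 (SE 0.14, adjusted p = 3.62e-07). Kcnn2 passed the filter through ff_GFP, CKO_NAT10 and CKO_G641E libraries alone, so its gap to CKO_GFP and CKO_K209A follows in part from the filter. NAT10 libraries stood at 1.86, 1.98 and 2.22 FPKM and G641E libraries at 2.24, 2.38 and 2.20. These were higher than CKO_GFP by 1.49 (adjusted p = 1.04e-05) and 1.63 (adjusted p = 4.91e-06). K209A libraries held 0.109, 0.236 and 0.241 FPKM, all below CKO_GFP, and the change of -0.37 was not called (adjusted p = 0.123). With a pseudocount of 0.1 that change was -0.77 and was called by limma (adjusted p = 0.0446).

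Kcnn3, a close relative of Kcnn2, was lower in the knockout by -0.69 (SE 0.17, adjusted p = 0.00518), at 0.694 to 0.908 FPKM in ff_GFP and 0.237 to 0.518 in CKO_GFP. In CKO_NAT10 and in CKO_G641E it was higher than in CKO_GFP by 0.72 (adjusted p = 0.00546 and 0.00552). Kcnn1 was not called in the knockout, at -0.42 (adjusted p = 0.115), but was lower in K209A than in NAT10 hearts by -0.78 (adjusted p = 0.00759). Of the sodium-activated pair, Kcnt2 was higher in the knockout by 0.76 (SE 0.20, adjusted p = 0.00795), at 0.299 to 0.487 FPKM in ff_GFP and 0.749 to 1.26 in CKO_GFP. Each ff_GFP library lay below 0.5 FPKM, so Kcnt2 passed the filter through the other groups. Kcnt1, at 0.160 to 0.269 and 0.298 to 0.612 FPKM, missed the threshold at 0.41 (adjusted p = 0.0741). Both were higher in K209A than in NAT10 hearts, by 0.86 (adjusted p = 0.00351) and 0.74 (adjusted p = 0.00371). Kcnt1 passed the filter through the 3 K209A libraries and CKO_GFP replicate 3, so its difference follows in part from the filter. Kcnmb1, a subunit of the large-conductance channel of vascular muscle, was not called in any comparison, and the pore gene Kcnma1 stayed at or below 0.0437 FPKM.

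None of the 4 tested two-pore leak genes was called in the knockout comparison, although 1 had an unadjusted p under 0.05. Kcnk3 was at 100, 89.2 and 102 FPKM in ff_GFP and at 69.6, 69.0 and 87.1 in CKO_GFP. Every knockout library lay below every control library, and the change of -0.37 (SE 0.15, adjusted p = 0.0665) missed the threshold. It was called without CKO_GFP replicate 3, at -0.48. K209A hearts held 39.3, 51.2 and 62.4 FPKM, below all other hearts, and were lower than CKO_GFP by -0.57 (SE 0.15, adjusted p = 0.0364). That call was lost without CKO_GFP replicate 3 at -0.46, without CKO_K209A replicate 1 at -0.40 and without CKO_K209A replicate 2 at -0.59, and with scaling to recovered reads at -0.46. NAT10 hearts, at 88.7, 74.6 and 86.9 FPKM, and G641E hearts, at 92.3, 74.9 and 76.3, overlapped CKO_GFP.

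Kcnk2, a stretch-sensitive leak channel gene, had a wide spread between libraries of a group. It was at 1.45, 0.876 and 1.29 FPKM in ff_GFP and at 2.78, 1.69 and 0.568 in CKO_GFP, with a change of 0.22 (SE 0.32, adjusted p = 0.612). It became 0.67 and was called without CKO_GFP replicate 3. It was at 1.32, 1.23 and 1.27 FPKM in CKO_NAT10, at 1.02, 1.17 and 1.49 in CKO_G641E and at 1.68, 1.95 and 0.998 in CKO_K209A, and all groups overlapped. Kcnk4 and Kcnk6 were not called in any of the 8 comparisons.

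Genes that work with potassium channels but fall outside the Kcn symbols, a list of 27 with 22 tested, gave 10 lower, 1 higher and 11 not called in the knockout comparison, beside 20.8% lower and 19.8% higher of all tested genes. Ank2, which anchors pumps and channels at the membrane, changed by -1.45 (SE 0.11, adjusted p = 6.5e-07) and was higher than CKO_GFP with NAT10, by 1.07 (adjusted p = 2.23e-05), and with G641E, by 1.20 (adjusted p = 8.78e-06). The single rise was that of Slc12a4, a potassium-chloride cotransporter gene, at 0.72 (adjusted p = 0.000524). Of these 22 genes NAT10 gave 8 higher and 3 lower than CKO_GFP, beside 15.1% and 16.1% of all tested genes, and G641E gave 6 and 2, beside 15.4% and 15.9%. K209A gave 0 and 3, beside 2.17% and 5.76%, and against NAT10 it gave 2 higher and 10 lower, beside 20.3% and 21.2%.

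The 56 genes that did not pass the filter were read at low levels. At 0 in all 15 libraries were 7 genes: Kcnj1, Kcnk10, Kcnk15, Kcnk16, Kcnh5, Kcns2 and Kcnv1. Another 42 had reads but never reached 0.5 FPKM, among them Kcnab1, a beta subunit gene, with a highest value of 0.386. A further 7 reached 0.5 FPKM in 1 or 2 libraries, among them Kcnj14, Kcnk13, Kcnk7, Kcna2, Kcna6 and Kcnc4, with highest values of 0.548 to 0.654. Just inside the filter were Kcne3 and Kcnd1 in 3 libraries and Kcnt1 in 4. By class, 9 of 37 voltage-gated pore genes passed, 8 of 15 inward rectifiers, 4 of 14 two-pore genes, 6 of 12 calcium- or sodium-activated genes and 7 of 12 auxiliary genes. Besides Kcnj3, the tested genes with the largest share of exon bases on an opposite-strand gene were Kcnk2 with 12.2%, Kcng2 with 9.1%, Kcnk3 with 5.8%, Kcnj15 with 5.3% and Kcnab3 with 5.1%.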

How the data were processed

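Libraries of poly-A RNA came from 15 mouse hearts, 3 in each of 5 groups. Reads were mapped to GRCm38 with HISAT2 2.0.5 and counted with featureCounts 1.5.0-p3, and CASAVA and DESeq2 1.20.0 are also listed, per the submitters' processing notes. The authors deposited FPKM values, per the file headers, and how they were scaled is not given in the sources used here. Multiplying FPKM by gene length and library size recovered whole reads for 100% of values (tolerance 0.05 reads), and the authors' library sizes were 0.908 to 1.131 times the recovered reads. Per-sample columns left unused numbered 0.

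Tests used limma 3.58.1 in R 4.3.3 on log2(FPKM + 0.5). The 15321 genes that reached 0.5 FPKM in 3 or more libraries were tested. All 5 groups entered 1 fit with 10 residual degrees of freedom, with Benjamini-Hochberg adjustment over all tested genes within each of 8 comparisons and a call at an adjusted p under 0.05. Intervals are 95% intervals of that fit. The fit was tested on simulated data. Alternatives were other pseudocounts, filters and scalings, voom, a replicate block, 2-group fits and leaving out each library. No libraries held identical values.

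Genes described in full were a cardiac panel and tested genes called with a log2 change of at least 1. The other genes named were chosen after their values were seen. Members, lists, comparisons and tests were chosen with earlier results of these data known. All 90 identifiers were found in the GENCODE M21 annotation. Mean values carry the SD of 3 libraries. Some genes enter the counts but are not reported here by name.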

Additional observations from a re-analysis of the deposited data

How the results depend on the processing

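No called change of a tested gene reversed its direction under any of the alternatives run. Of 22 calls in CKO_GFP against ff_GFP, other settings gave 18 to 23, and leaving out 1 library gave 17 to 22. The share of all tested genes called there was 40.5%. It was 20.7% to 44.7% in other settings and 33.3% to 44.4% without 1 library. CKO_G641E against CKO_GFP gave 13 calls (31.3% of all tested genes) and 8 when only the 2 groups were fitted (17.6%). CKO_K209A against CKO_GFP gave 6, and 3 with no filter, 3 under quantile normalization, 0 with only the 2 groups, and 2 to 10 without 1 library. CKO_NAT10 against ff_GFP gave 2 (2.47% of all tested genes), 1 with no filter (0.95%) and 1 when scaled to recovered reads (1.86%). It gave 0 with only the 2 groups (1.35%), and 0 to 1 without 1 library (0.6% to 1.87%). CKO_G641E against ff_GFP gave 2 (1.79% of all tested genes) and 1 when scaled to recovered reads (1.53%). It gave 5 with only the 2 groups (2.57%), and 0 to 2 without 1 library (0.457% to 1.08%). In CKO_K209A against CKO_GFP the share of all tested genes called moved too. It was 7.93%, 2.98% with no filter, 7.22% under quantile normalization, 0.0587% with only the 2 groups, and 2.79% to 10.8% without 1 library. The cause was not tested, beyond the fewer samples in the last kinds of fit.

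Over 8 comparisons, 85 changes of single tested genes were called. Of these, 13 were lost when scaled to recovered reads, 21 with only the 2 groups, 11 with no filter, 7 under quantile normalization and 1 each with voom and with a pseudocount of 0.1 or 1. Leaving out 1 library lost 74 of 510. Deviations of libraries with the same replicate number had a median correlation of 0.01 (-0.15 to 0.36), beside 0.00 (-0.27 to 0.25) for different numbers. Between CKO_NAT10 and CKO_G641E it was 0.09, 0.36 and 0.12 for the same number, and -0.27 to 0.20 for different numbers. A median over all groups cannot decide whether the numbers pair libraries of single groups. A replicate block gave 22 calls in CKO_GFP against ff_GFP, 18 and 11 for NAT10 and G641E against CKO_GFP, and 7 for K209A against CKO_GFP. It gave 0 for G641E against NAT10, 24 for K209A against NAT10, and 2 and 3 for NAT10 and G641E against ff_GFP. The shares of all tested genes called were 40%, 30.6%, 30.8%, 7.43%, 0.0522%, 40.8%, 2.03% and 1.36%, in that order. With 3 libraries a group and a median SE of 0.19, small changes of low genes were not detectable.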

Other observations

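Without a filter on low values, limma took in 83 of the 90 genes and called 22 in CKO_GFP against ff_GFP, beside 20.7% of all genes with reads. Only 3 of the called genes had not been tested before. The untested genes in this fit were 42 that never reached 0.5 FPKM and 7 that did in 1 or 2 libraries. Kcng4, a silent voltage-gated subunit gene, was at 0.400, 0.275 and 0.262 FPKM in ff_GFP and at 0.0331, 0.0588 and 0.0176 in CKO_GFP, a log2 change of -0.59 (adjusted p = 0.000167). Kcnh6, a relative of Kcnh2, was at 0.123, 0.126 and 0.240 FPKM in ff_GFP, at 0.0177 in 1 CKO_GFP library and listed at 0 in the other two, a change of -0.39 (adjusted p = 0.00102). Kcnf1, a further silent subunit gene, was listed at 0 in the 3 ff_GFP libraries and was at 0.0394, 0.218 and 0.335 FPKM in CKO_GFP, a change of 0.46 (adjusted p = 0.0176). These values rest on few reads. Kcng4 had 21, 14 and 14 reads in ff_GFP and 2, 3 and 1 in CKO_GFP. Kcnh6 had 6, 6 and 12 against 1, 0 and 0, and Kcnf1 had 3, 14 and 24 in CKO_GFP. In CKO_K209A Kcnf1 was at 0.251, 0.142 and 0.233 FPKM, while the 3 CKO_NAT10 libraries were at 0. Kcnj14 was lower in K209A than in NAT10 hearts by this fit, by -0.65 (adjusted p = 0.00461), at 0.123, 0.0228 and 0.173 FPKM against 0.378, 0.361 and 0.626. It had 5, 1 and 8 reads against 15, 14 and 22. For K209A against NAT10 this fit called 29 of 83, beside 20.7% of all genes with reads.

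Among noncoding genes named after channel genes, Kcnd3os was at 0.268, 0.166 and 0.315 FPKM in ff_GFP, at 0, 0 and 0.0494 in CKO_GFP and at 0 in the 3 K209A libraries. Kcnq1ot1 stayed between 0.0705 and 0.130 FPKM in all 15 libraries. Neither passed the filter, and neither was tested.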
